A study of Mus musculus with 6 samples.

Results

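The respiratory chain genes described here are 97 of the 53465 gene rows of the count matrix. Their protein-coding mouse symbols fit names used for subunits of complexes I to V, which does not show that each product is a subunit. The 97 genes were chosen by symbol alone: the Nduf genes without assembly factors and Ndufa4l2, Sdha to Sdhd, the Uqcr genes, Cox4 to Cox8, the Atp5 genes, and the 13 messenger RNAs encoded by mitochondrial DNA. The nucleus encodes 84 of them (37 for complex I, 4 for complex II, 8 for complex III, 18 for complex IV and 17 for complex V), and mitochondrial DNA encodes 7 for complex I, 1 for complex III, 3 for complex IV and 2 for complex V. A further 13 symbols that fit these names, 12 of them processed pseudogenes, are not protein coding and were left out.

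The libraries held RNA of brain endothelial cells of the cortex, from mice injected with pentylenetetrazol (PTZ), which blocks GABA-A receptors and provokes seizures, or with phosphate buffered saline (PBS). All mice were males aged 8 to 12 weeks, and both groups carried the same 3 alleles: tie2-Cre, ai9 and rpl22HA/HA. The tie2 promoter drives Cre in endothelium and also in some blood-forming cells. The ai9 allele is a fluorescent reporter switched on by Cre, and rpl22HA/HA tags a protein of the large cytosolic ribosomal subunit in cells with Cre. Each group had 3 libraries, numbered 1, 2 and 4, and values per library are given in that order. Nothing in the labels says that they came from separate animals, so p-values measure only the spread between libraries, which may be technical. The series' title speaks of a translatome while the labels name total RNA. The sources used here do not give the dose of PTZ, the time to collection, or how cells or ribosomes were isolated.

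The respiratory chain lies in the inner mitochondrial membrane. Complex I and complex II pass electrons from NADH and succinate to ubiquinone, complex III passes them on to cytochrome c, and complex IV to oxygen. Complexes I, III and IV pump protons, and complex V, the ATP synthase, uses the gradient to make ATP. The nuclear messenger RNAs are translated by cytosolic ribosomes, to which Rpl22 belongs, whereas the mitochondrial ones are translated inside the organelle by ribosomes that lack it. Endothelial cells in general obtain much of their ATP from glycolysis, and endothelium of the blood-brain barrier is known for a high content of mitochondria.

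Gene counts summed to between 11107481 and 15406967 reads per library. Reads outside any annotated feature made up 9.34% of the reads in the count matrix for PTZ library 1 and 2.99% to 5.19% for the other libraries. All 10 endothelial markers were detected and together reached 10908 to 18264 CPM (library-size-scaled counts, with TMM factors) in PTZ libraries and 11350 to 15559 CPM in PBS libraries. Markers of other cells were present too. The 12 markers of pericytes and smooth muscle summed to 1174, 391 and 1119 CPM in PTZ, against 216, 326 and 601 CPM in PBS. Of these 12, 4 were higher in every PTZ library than in every PBS library, as were 2 of the 10 endothelial markers. Among all genes tested, 7.3% were higher in this way and 7.04% were lower. Tagln, of the 4 pericyte and smooth muscle markers, was too low to test, at 0.298 CPM in PTZ library 2 against 0.296 CPM in PBS library 2. The 5 fibroblast markers summed to 80.5 to 244 CPM in PTZ, against 81.1 to 138 CPM in PBS. The 7 microglia markers summed to 1549 to 2385 CPM in PTZ, against 2424 to 2877 CPM in PBS, so these sums did not overlap. Of these 7, 2 were lower in every PTZ library than in every PBS library. The 5 red cell genes summed to 5788 to 11683 CPM in PTZ, against 6577 to 10852 CPM in PBS. Neuron markers summed to 252 to 462 CPM in PTZ, against 270 to 446 CPM in PBS. Astrocyte markers summed to 35.1 to 81.9 CPM in PTZ, against 40.2 to 48.4 CPM in PBS. Oligodendrocyte markers summed to 77.0 to 176 CPM in PTZ, against 59.8 to 210 CPM in PBS. In PTZ 1 fibroblast and 1 neuron marker were higher without overlap, and 1 oligodendrocyte marker was lower. No marker of these lists was at 0 in all libraries. Their part in the results below was not tested, except where a value is given.

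No respiratory chain gene passed the test between PTZ and PBS. Of the 97 genes, 91 had enough reads to be tested (80 nuclear and 11 mitochondrial), and 0 had an adjusted p under 0.05 in edgeR's quasi-likelihood test, as did 0 of all 13768 genes tested (0%). The smallest adjusted p was 0.577 among the nuclear genes and 0.812 among the mitochondrial ones. Taking the p of edgeR without adjustment at 0.05, 2 of 80 nuclear genes were lower in PTZ (Sdhd and Ndufs3) and 0 were higher. Of all genes, 3.38% were lower and 3.83% higher in this way. Of the nuclear genes, 7 had all PTZ libraries below all PBS libraries and 1 had them above, against a background of 7.04% of all genes for lower and 7.3% for higher, so the share of members was near the background for lower and under it for higher.

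The direction of the estimates was uneven even so. The log2 fold change of PTZ over PBS was negative for 65 of 80 nuclear genes, where it was negative for 47.3% of all genes, and its median was -0.24 over the nuclear genes and 0.034 over all genes. Without PTZ library 1, 51 of 80 nuclear genes were negative, against 48.1% of all genes, and the median was -0.065. In that fit 1 nuclear gene was lower at an unadjusted p under 0.05 (Sdhd, with 3.17% of all genes lower) and 1 was higher (Cox5b, with 2.76% of all genes higher). Without PTZ library 2 the median was -0.61, and 44 of 80 nuclear genes were lower at an unadjusted p under 0.05, where 6.48% of all genes were, but none passed the adjusted threshold (smallest adjusted p 0.362 in edgeR). In a bulk library, fewer cells of a type and less RNA per cell cannot be told apart. The mitochondrial messenger RNAs lay the other way: all 11 tested had a positive estimate, with a median of 0.39, and 0 of the 11 passed an unadjusted p under 0.05. Positive estimates fell to 7 of 11 without PTZ library 4, 8 of 12 without PBS library 1 and 9 of 12 without PBS library 2. When any other library was left out, all those tested stayed positive.

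**Figure D1:**
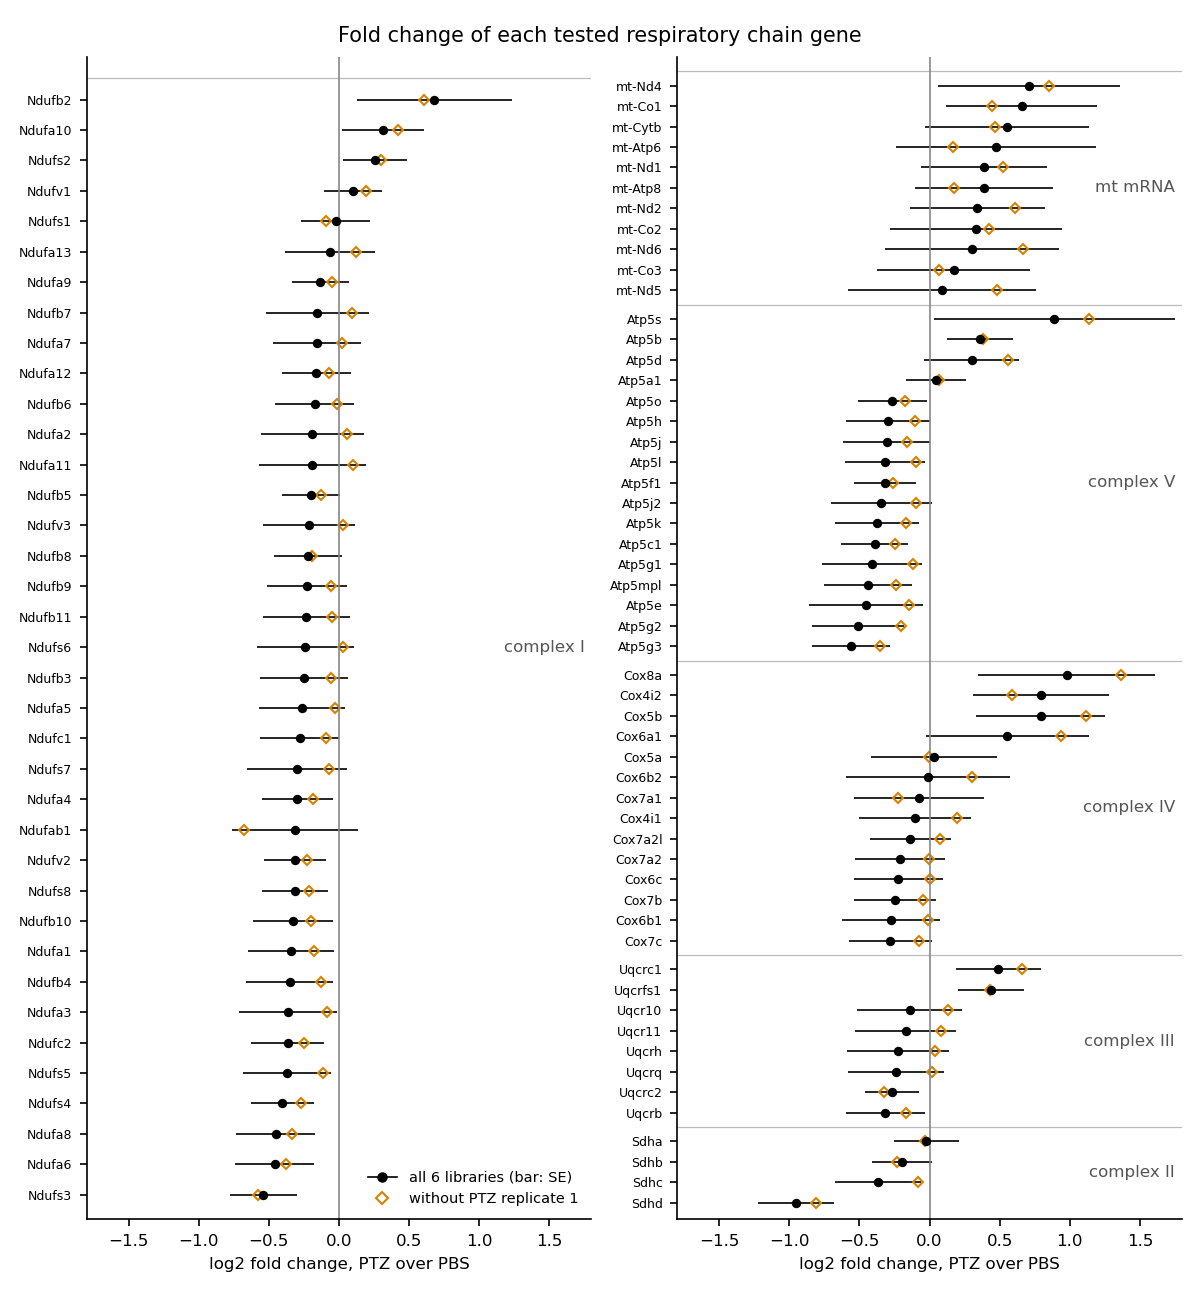
Log2 fold change of PTZ over PBS for the 91 tested respiratory chain genes, grouped by complex; filled points with bars give the fit of all 6 libraries with its SE, and open diamonds the estimate without PTZ library 1. The points of 65 of 80 nuclear genes lie left of 0 and those of all 11 mitochondrial messenger RNAs right of it, and the diamonds of most nuclear genes lie nearer to 0 than the points.

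Summed over all 84 nuclear genes, the level was 18634, 36006 and 23110 CPM in PTZ, against 28379.6, 34567 and 27462 CPM in PBS. PTZ library 2 was the highest of all and the other PTZ libraries were the lowest, so the groups overlapped. The means were 25917 ± 9020 CPM in PTZ and 30136 ± 3864 CPM in PBS (SD, n = 3 each), a ratio of 0.860, or 0.981 without PTZ library 1. Between libraries of the same number the ratio of PTZ over PBS was 0.657 for number 1, 1.04 for number 2 and 0.842 for number 4. In complexes I, III and V, too, PTZ library 2 was highest and the other PTZ libraries were lowest. In complex II PTZ library 2 had 928 CPM, below PBS libraries 1 and 4 at 982 and 1039 CPM. In complex IV PTZ library 4 had 3942 CPM, above PBS library 1 at 3797 CPM. The ratio of mean summed levels, PTZ over PBS, was 0.844 for complex I, 0.849 for complex II and 0.896 for complex III. It was 0.929 for complex IV and 0.832 for complex V. Without PTZ library 1 these ratios were 0.953, 0.895, 1.05, 1.12 and 0.930, in the same order, and for every complex the PTZ and PBS libraries overlapped.

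**Figure D2:**
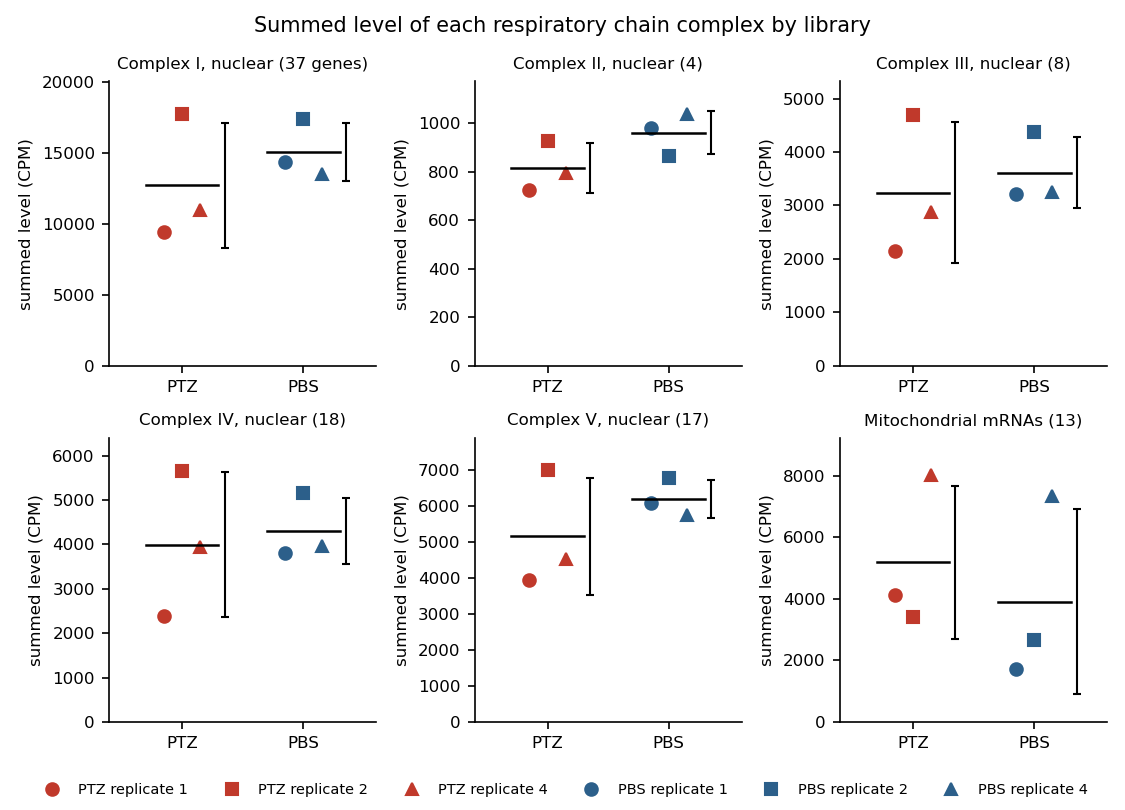
Summed level in CPM of the nuclear genes of each complex and of the mitochondrial messenger RNAs, by library, with the mean as a line and the SD as a bar (n = 3 per group). In 5 panels the square of PTZ library 2 lies with or above the PBS libraries while PTZ library 1 is lowest, and in the mitochondrial panel libraries 4 of both groups are highest (8044 CPM in PTZ, 7348 CPM in PBS).

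Complex I was represented by 7 nuclear core subunits, which carry the flavin and the iron-sulfur clusters or the ubiquinone site, and 30 accessory subunits. Of its 37 nuclear genes, 33 had negative estimates, and the median log2 fold change was -0.30 over the core subunits and -0.24 over the accessory ones, or -0.096 and -0.065 without PTZ library 1. Ndufs3 (ENSMUSG00000005510, chromosome 2, 90894634 to 90904827, minus strand, GRCm38) is a core subunit of the ubiquinone-binding module. It had 229, 159 and 261 CPM in PTZ, against 341, 309 and 294 CPM in PBS. Every PTZ library lay below every PBS library, the log2 fold change was -0.54 (SE 0.24), and the adjusted p was 0.690 in edgeR. This gene shares 39.7% of the 50-base windows of its transcripts with other genes, pseudogenes among them, which makes its count uncertain. Ndufv2 is a core subunit of the NADH-oxidizing module and carries an iron-sulfur cluster. It had 257, 328 and 293 CPM in PTZ, against 407, 348 and 338 CPM in PBS, again without overlap, at a log2 fold change of -0.32 (SE 0.22). Ndufs4, an accessory subunit known to stabilize this module, had 122, 192 and 139 CPM in PTZ, against 203, 193 and 203 CPM in PBS. Its PTZ libraries lay below its PBS libraries, PTZ library 2 by less than 1 CPM (-0.40 on the log2 scale, SE 0.23).

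Other core subunits of complex I showed no such gap. Ndufs1, which carries several iron-sulfur clusters, had 29.1, 25.8 and 24.5 CPM in PTZ, against 28.3, 27.5 and 24.9 CPM in PBS. Ndufv1, which binds NADH and the flavin, had 209, 276 and 235 CPM in PTZ, against 218, 223 and 231 CPM in PBS. Both genes overlapped between the groups, with log2 fold changes of -0.025 (SE 0.25) for Ndufs1 and 0.10 (SE 0.21) for Ndufv1, signs that turned under other settings. Among accessory subunits, Ndufa8, which faces the intermembrane space, averaged 646 ± 185 CPM in PTZ libraries and 883 ± 117 CPM in PBS libraries, with PTZ library 2 inside the PBS range (-0.45, SE 0.28). Ndufa6, a LYR-motif protein of the matrix arm, averaged 202 ± 70.9 CPM in PTZ libraries and 277 ± 53.9 CPM in PBS libraries (-0.46, SE 0.28), and Ndufc2, of the membrane arm, 266 ± 82.96 CPM in PTZ libraries and 343 ± 33.4 CPM in PBS libraries (-0.37, SE 0.26). In these genes, too, the groups overlapped. Levels per length spanned a wide range within the complex: Ndufa2, an accessory subunit of the matrix arm, was highest at 1335 CPM per kb of exon, while Ndufs1 stood at 3.302, the acyl carrier protein Ndufab1 at 1.76 and Ndufb2 at 1.45 CPM per kb. The length here and below is that of all annotated exons of a gene merged, so ranks per length depend on the annotation. Ndufb7 averaged 985 CPM in PTZ and 1097 CPM in PBS, but stood at 230 CPM per kb over 4522 merged bases, with a coding sequence of 411 bases. Ndufa4 is counted here by its name, although its product is now known as a subunit of complex IV. It had 341, 529 and 346 CPM in PTZ, against 538, 485 and 472 CPM in PBS, with overlap (-0.30, SE 0.25).

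Complex II, succinate dehydrogenase, is encoded by the nucleus alone. Its 4 subunits all had negative estimates. Sdhd (ENSMUSG00000000171, chromosome 9, 50596357 to 50603812, minus strand) is a membrane anchor that holds heme and part of the ubiquinone site. It had 18.7, 25.1 and 26.6 CPM in PTZ, against 50.8, 33.9 and 51.3 CPM in PBS. All PTZ libraries lay below all PBS libraries, and the means were 23.5 ± 4.18 CPM in PTZ libraries and 45.3 ± 9.94 CPM in PBS libraries (SD, n = 3 each). The log2 fold change was -0.95 (SE 0.27), edgeR's unadjusted p was 0.00548 and the adjusted p 0.577. As single libraries were left out, the estimate ranged from -1.15 to -0.81, and it was -0.81 without PTZ library 1. Its partner in the membrane, Sdhc, had 140.3, 344 and 256 CPM in PTZ, against 309.6, 295 and 350.1 CPM in PBS, with overlap, and its estimate of -0.37 (SE 0.31) became -0.083 without PTZ library 1. Sdhb, the iron-sulfur subunit and the most abundant of the complex per length (163 CPM per kb), had 361, 362 and 302 CPM in PTZ, against 405, 382 and 384 CPM in PBS. The groups did not overlap, but the gap was small (-0.19, SE 0.21). Sdha, the flavoprotein that oxidizes succinate, had 207, 197 and 211 CPM in PTZ, against 216, 156 and 253 CPM in PBS, and its PTZ values lay inside the PBS range (-0.023, SE 0.23, with a sign that turned under several settings).

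Complex III held genes on both sides. Uqcrfs1, the Rieske iron-sulfur protein, was the only nuclear gene of the 80 with all PTZ libraries above all PBS libraries. It had 46.6, 53.9 and 38.1 CPM in PTZ, against 33.04, 37.8 and 31.5 CPM in PBS (0.44, SE 0.24, adjusted p 0.716 in edgeR). Uqcrc2, a core protein, lay the other way without overlap, at 137, 116 and 126 CPM in PTZ, against 162, 143 and 151 CPM in PBS (-0.27, SE 0.19). It shares 24.8% of its windows with the overlapping gene Pdzd9. The second core protein, Uqcrc1, had 184, 174 and 374 CPM in PTZ, against 178, 186 and 157 CPM in PBS, where PTZ library 4 alone was high. Its estimate of 0.49 (SE 0.30) was 0.038 without that library. Uqcrb, which lies near the ubiquinone site, averaged 373 ± 132 CPM in PTZ libraries and 464 ± 60.9 CPM in PBS libraries (-0.31, SE 0.28). Uqcr11, a small subunit and the highest of the complex per length at 1204 CPM per kb, averaged 727 ± 340.3 CPM in PTZ libraries and 817 ± 226 CPM in PBS libraries (-0.17, SE 0.36), and the sign turned without PTZ library 1 (0.083). In both genes the groups overlapped.

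Complex IV, cytochrome c oxidase, has tissue-restricted isoforms, and the ubiquitous ones dominated here. Cox4i1, the ubiquitous form of the subunit that binds ATP, stood at 984 CPM per kb of exon, against 30.98 for Cox4i2, a form known from lung and induced by low oxygen. Cox4i1 had 802, 2350.4 and 1257 CPM in PTZ, against 1282, 2018 and 1441 CPM in PBS. PTZ library 2 was highest and PTZ library 1 lowest, and the estimate of -0.10 (SE 0.40) was 0.19 without PTZ library 1. Cox4i2, which in mouse brain is also used as a pericyte marker, had 39.5, 21.8 and 31.5 CPM in PTZ, against 7.62, 32.8 and 13.3 CPM in PBS. PBS library 2 lay inside the PTZ range, so the groups overlapped (0.80, SE 0.48, adjusted p 0.755 in edgeR). The estimate was 1.53 without PBS library 2 and 0.43 without PBS library 1. Beside it, the summed pericyte and smooth muscle markers were highest in PTZ libraries 1 and 4 and lowest in PBS library 1. PBS libraries 2 and 4 ranked the other way: Cox4i2 had 32.8 and 13.3 CPM there, and the markers summed to 326 and 601 CPM. The part of these cells in the Cox4i2 difference was not tested. Of the forms known from heart and muscle, Cox7a1 averaged 8.78 ± 2.94 CPM in PTZ libraries and 9.22 ± 2.51 CPM in PBS libraries. Cox6a2 had 2 reads in PTZ library 1, 44 in PBS library 1 and 0 elsewhere, and Cox8b had 2 reads in PTZ library 4, 7 in PBS library 1 and 0 elsewhere. Of the forms known from testis, Cox6b2 averaged 10.5 ± 4.803 CPM in PTZ libraries and 10.6 ± 6.31 CPM in PBS libraries, Cox7b2 had 1 read, in PTZ library 2, and Cox8c had 0 in every library. Cox6a2, Cox7b2, Cox8b and Cox8c were too low to test.

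A few genes of complexes III and IV were set by 1 library. Of the 80 tested nuclear genes, 4 were more than 1.5-fold higher in PTZ library 4 than in any other library (2.99% of all genes were), and no other library stood out in this way for any of the 80. Cox6a1, the ubiquitous form of subunit 6a, had 106, 103 and 593 CPM in PTZ, against 175, 217 and 154 CPM in PBS. Cox8a, the ubiquitous form of subunit 8, had 31.1, 25.1 and 186 CPM in PTZ, against 40.97, 47.7 and 34.5 CPM in PBS. Cox5b, a zinc-binding subunit, had 34.4, 43.8 and 127 CPM in PTZ, against 40.3, 51.6 and 26.98 CPM in PBS. In all 3 the other PTZ libraries lay within or below the PBS range. The log2 fold changes of 0.56 (SE 0.58), 0.98 (SE 0.63) and 0.79 (SE 0.46), for Cox6a1, Cox8a and Cox5b in turn, became -0.80, -0.55 and -0.024 without PTZ library 4, with adjusted p of 0.639, 0.741 and 0.996 in edgeR. The fourth gene was Uqcrc1, described above. Other complex IV genes with negative estimates were small subunits. Cox7c averaged 219 ± 95.8 CPM in PTZ libraries and 266 ± 20.02 CPM in PBS libraries (-0.28, SE 0.30), and Cox7b averaged 185 ± 72.4 CPM in PTZ libraries and 219 ± 39 CPM in PBS libraries (-0.25, SE 0.29). Cox6b1, the highest per length at 1019 CPM per kb, averaged 653 ± 320.3 CPM in PTZ libraries and 790.4 ± 123 CPM in PBS libraries (-0.28, SE 0.35). Each overlapped between the groups, and without PTZ library 1 the 3 estimates were -0.074, -0.048 and -0.013.

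**Figure D3:**
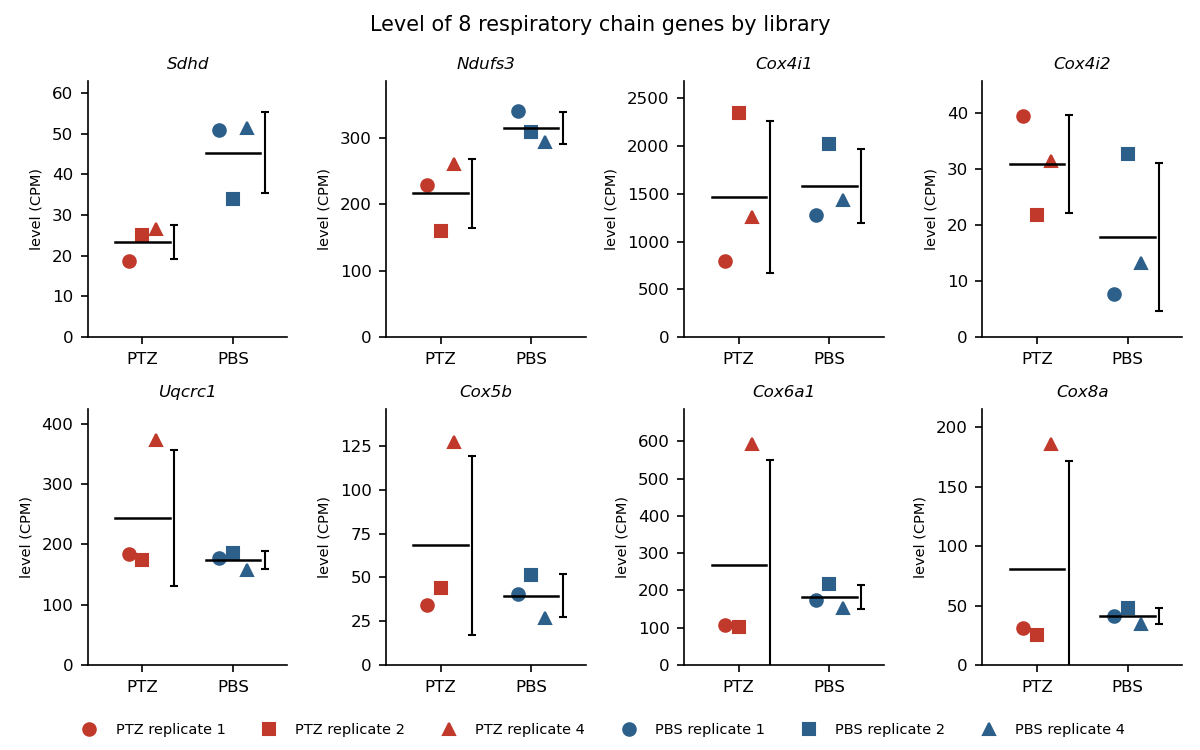
Level in CPM of 8 respiratory chain genes by library, with the mean as a line and the SD as a bar (n = 3 per group; bars that would pass below 0 end at the axis). Sdhd and Ndufs3 lie lower in all PTZ libraries than in all PBS libraries, Cox4i1 is lowest in PTZ library 1 and highest in PTZ library 2, and in the lower row the triangle of PTZ library 4 stands alone, at 593 CPM for Cox6a1 and 186 CPM for Cox8a.

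In complex V, 13 of 17 genes had negative estimates. The 3 genes of subunit c, whose copies form the proton-driven ring, had negative estimates too. Atp5g3 had 173, 349 and 226 CPM in PTZ, against 365, 349.7 and 388 CPM in PBS. PTZ library 2 lay just below the lowest PBS library, so the groups did not overlap (-0.56, SE 0.28, adjusted p 0.700 in edgeR). Atp5g2 had 32.7, 90.7 and 63.1 CPM in PTZ, against 89.3, 80.2 and 95.8 CPM in PBS (-0.51, SE 0.33). Atp5g1 had 185, 529.6 and 284 CPM in PTZ, against 411, 522 and 394 CPM in PBS (-0.41, SE 0.36), and both genes overlapped between the groups. Without PTZ library 1 the 3 estimates were -0.35, -0.20 and -0.12, for Atp5g3, Atp5g2 and Atp5g1. In the catalytic head the estimates had both signs. Atp5b, the catalytic beta subunit, averaged 400.0 ± 48.1 CPM in PTZ libraries and 312 ± 56.2 CPM in PBS libraries (0.36, SE 0.23). Atp5c1, the central gamma shaft, averaged 246 ± 45.5 CPM in PTZ libraries and 322 ± 49.96 CPM in PBS libraries (-0.39, SE 0.24). Atp5a1, the alpha subunit, had 427, 443 and 452 CPM in PTZ, against 430.1, 433 and 418 CPM in PBS (0.045, SE 0.21, a sign that turned under the authors' scaling). In the peripheral stalk Atp5f1 averaged 256 ± 17.3 CPM in PTZ libraries and 319 ± 53.8 CPM in PBS libraries (-0.32, SE 0.22), and Atp5mpl, a small membrane subunit, averaged 149.9 ± 67.7 CPM in PTZ libraries and 203 ± 42.1 CPM in PBS libraries (-0.44, SE 0.31). Atp5k, the highest per length at 367 CPM per kb, averaged 197 ± 82.4 CPM in PTZ libraries and 255 ± 46.5 CPM in PBS libraries (-0.37, SE 0.30). All of these overlapped between the groups.

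Many nuclear genes shared the libraries in which they were lowest or highest. PTZ library 1 was the lowest of the 6 libraries for 52 of 80 nuclear genes (65.0%), where it was the lowest for 20.2% of all genes tested, and PTZ library 2 was the highest for 39 of 80 (48.8%), against 17.2% of all genes. PTZ library 1 was the lowest for 26 of 37 genes of complex I, 2 of 4 of complex II, 5 of 8 of complex III, 7 of 14 of complex IV and 12 of 17 of complex V. PTZ library 2 was the highest for 17, 0, 6, 7 and 9 of them, in the same order.

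Many subunits are small proteins, and libraries differed by coding length. This split was made after the values were seen. For nuclear respiratory chain genes with a longest coding sequence of up to 300 bases (n = 20), the median deviation from the PBS mean on the log2 scale was -0.84 in PTZ library 1, 0.34 in PTZ library 2 and -0.55 in PTZ library 4, against -0.084, 0.27 and -0.14 in the PBS libraries. For the 218 other protein-coding genes of that length it was -0.57, 0.045 and -0.34 in PTZ libraries 1, 2 and 4, and -0.055, 0.10 and -0.0039 in the PBS libraries. For genes over 1200 bases it was 0.021, 0.054 and 0.070 in PTZ libraries 1, 2 and 4 for the 9 respiratory chain genes, and 0.20, 0.044 and 0.14 for the 7188 others. Up to 300 bases, the median log2 fold change was -0.26 for the members and -0.23 for the other genes. Over 300 and up to 600 bases it was -0.24 for 40 members and -0.21 for 1319 others, and over 600 and up to 1200 bases it was -0.30 for 11 members and -0.092 for 3538 others. Over 1200 bases it was positive in both, at 0.045 for 9 members and 0.14 for 7188 others. The share of negative estimates up to 300 bases was 95.0% of members and 74.8% of other genes, and in the next bin 82.5% of members and 69.7% of other genes. In the third bin it was 81.8% of members and 57.6% of other genes, and over 1200 bases 44.4% of members and 37.5% of other genes. The part of coding length in the negative estimates was not tested beyond these values.

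**Figure D4:**
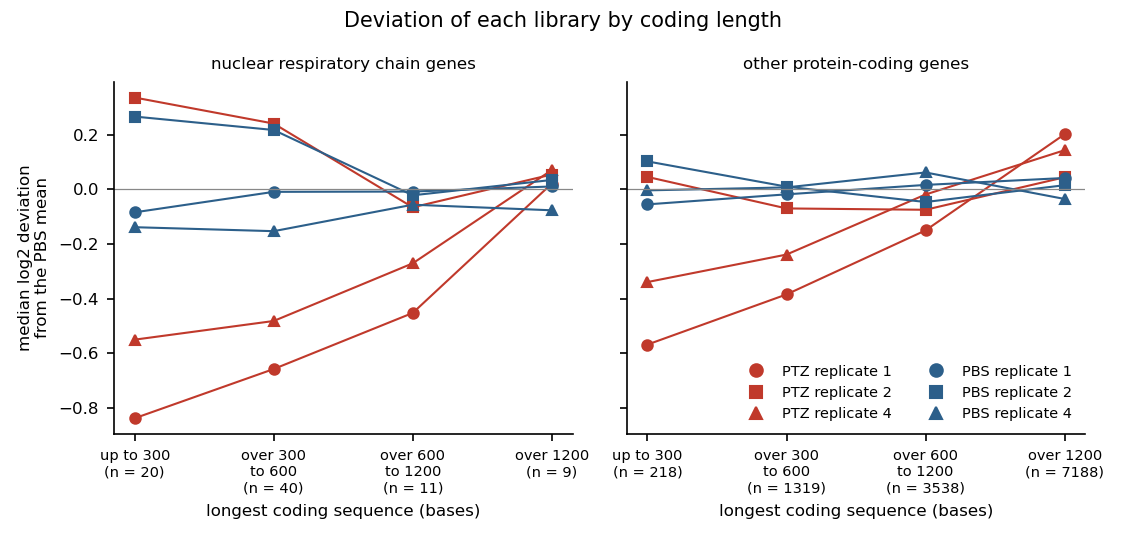
Median log2 deviation of each library from the mean of the PBS libraries, for genes binned by the length of their longest coding sequence in bases; the left panel has the nuclear respiratory chain genes and the right panel the other protein-coding genes. PTZ libraries 1 and 4 lie lowest for the shortest genes in both panels, at -0.84 and -0.55 on the left and -0.57 and -0.34 on the right, and all libraries are close to 0 for members over 1200 bases.

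The promoters of nuclear respiratory chain genes are known for sites of NRF1, ETS-family factors such as GABPA, and YY1. RefSeq promoters (GRCm38.p6, 250 bases before to 50 after the gene's start) could be matched for 69 of the 84 genes. GCGCANGCG, the core of the NRF1 site, was found on either strand in 29.0% of the 69, against 7.03% of all 27025 genes with a promoter there. A gene with several starts was counted once, if any of its promoters held the motif. CCGGAAG, an ETS core, was found in 23.2% of the 69, against 9.93% of all, and AAGATGGC, a YY1 core, in 14.5%, against 3.19%. The 3 motifs were counted separately, and a promoter can hold more than 1. A match is a description of the letters, not of binding. One stretch of 60 bases upstream of a RefSeq start is shown for each complex, 5′ to 3′ on the gene's strand, with the motif in capitals (CTTCCGG is CCGGAAG read on the other strand), for genes described above and for Uqcrh, the hinge protein of complex III. They lie at chr2:90904732-90904791, chr9:50603879-50603938, chr4:116075071-116075130, chr5:115348959-115349018 and chr2:10080433-10080492, in the order given, all on the minus strand. The GENCODE starts differ from these: all 60 bases of the Ndufs3 and Atp5c1 stretches lie inside the GENCODE gene, as do 23 bases for Cox6a1, 1 base for Uqcrh and 0 for Sdhd. Sdhd holds both an NRF1 and an ETS core, Atp5c1 an NRF1 core and the other stretches an ETS core.
Ndufs3: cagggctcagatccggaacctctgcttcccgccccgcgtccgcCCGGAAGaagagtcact
Sdhd: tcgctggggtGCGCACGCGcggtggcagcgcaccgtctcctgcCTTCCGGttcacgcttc
Uqcrh: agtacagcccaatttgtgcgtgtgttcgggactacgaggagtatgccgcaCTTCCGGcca
Cox6a1: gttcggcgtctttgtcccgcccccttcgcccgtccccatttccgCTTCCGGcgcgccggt
Atp5c1: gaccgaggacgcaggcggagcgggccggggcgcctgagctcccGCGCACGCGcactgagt

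The mitochondrial messenger RNAs varied by library in another way than the nuclear genes. Their summed level was 4117, 3403 and 8044 CPM in PTZ, against 1709.7, 2678 and 7348 CPM in PBS. The libraries numbered 4 were highest in both groups, PBS library 1 was lowest, and the groups overlapped. The means were 5188 ± 2499 CPM in PTZ and 3912 ± 3015 CPM in PBS (SD, n = 3 each), a ratio of 1.33, or 1.46 without PTZ library 1. Between libraries of the same number the ratio was 2.41, 1.27 and 1.09 for numbers 1, 2 and 4. Relative to the summed nuclear genes, the mitochondrial sum was 0.221, 0.0945 and 0.348 in PTZ, against 0.0602, 0.0775 and 0.268 in PBS. Each PTZ library thus exceeded the PBS library of its own number, while the groups as such overlapped.

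Single mitochondrial genes differed in which library was high. The complex I genes mt-Nd2, mt-Nd4, mt-Nd5 and mt-Nd6, membrane-arm subunits, were highest in the libraries numbered 4. mt-Nd5 had 319, 519.9 and 1711 CPM in PTZ, against 307, 534 and 1560.2 CPM in PBS. mt-Nd6, the one messenger encoded on the other strand of the mitochondrial genome, had 241, 325 and 1121 CPM in PTZ, against 247, 258 and 863 CPM in PBS. It overlaps mt-Nd5 in 2.70% of its exon, and the strand setting of the counting is not given. mt-Nd2 had 499, 634 and 1383 CPM in PTZ, against 334, 541 and 1112 CPM in PBS. In these 3 genes both libraries numbered 4 exceeded all the others. The log2 fold change of mt-Nd5 was 0.087 (SE 0.67), and it ranged from -0.94 to 0.99 as single libraries were left out. mt-Nd4 had 404, 215 and 913 CPM in PTZ, against 174, 116 and 648 CPM in PBS (0.71, SE 0.65), with each PTZ library above the PBS library of the same number. It shares 62.2% of its 50-base windows with a nuclear pseudogene, which makes its count uncertain. mt-Nd1 had 432, 572 and 597 CPM in PTZ, against 138, 469 and 617 CPM in PBS, where PBS library 1 alone was low (0.39, SE 0.45). mt-Cytb (ENSMUSG00000064370, mitochondrial genome, 14145 to 15288) encodes cytochrome b of complex III. It had 1263, 586 and 1543 CPM in PTZ, against 360.0, 356 and 1596 CPM in PBS. PTZ libraries 1 and 4 and PBS library 4 were high (0.55, SE 0.58). The estimate was 1.63 without PBS library 4 and 0.17 without PBS library 2. mt-Co1, the catalytic subunit of complex IV, had 817, 464 and 646 CPM in PTZ, against 116, 335 and 772 CPM in PBS, with PBS library 1 far below the rest (0.66, SE 0.54, adjusted p 0.812 in edgeR). Its estimate was 1.48 without PBS library 4 and 0.21 without PBS library 1. The count of mt-Co1 is uncertain as well, since 51.1% of its windows also occur in nuclear pseudogenes. mt-Atp8, a membrane subunit of complex V, had 84.6, 42.1 and 72.3 CPM in PTZ, against 21.9, 32.6 and 97.9 CPM in PBS (0.39, SE 0.49), and shares 21.1% of its exon with mt-Atp6. Its estimate was 1.25 without PBS library 4 and 0.021 without PBS library 1. All of these genes overlapped between the groups.

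Taking the replicate number as a block, which sets each PTZ library against the PBS library of its number, changed these counts. In that fit 2 of 11 mitochondrial genes were higher at an unadjusted p under 0.05 (mt-Nd4 and mt-Cytb, with 5.59% of all genes higher), and 5 of 80 nuclear genes were lower (Ndufa8, Ndufs3, Sdhd, Atp5e and Atp5g3, with 5.31% of all genes lower). The log2 fold changes in this fit were 0.87 for mt-Nd4, 0.82 for mt-Cytb, -0.48 for Ndufa8, -0.57 for Ndufs3, -0.94 for Sdhd, -0.64 for Atp5e and -0.62 for Atp5g3. None passed the adjusted threshold, and the smallest adjusted p in edgeR was 0.262 for mt-Nd4 and 0.344 for Sdhd. Other settings gave other counts, again with 0 past the adjusted threshold. Without PBS library 4, 5 of 11 mitochondrial genes were higher at an unadjusted p under 0.05 in edgeR (mt-Nd4, mt-Cytb, mt-Co1, mt-Atp6 and mt-Atp8, with 2.54% of all genes higher and a smallest adjusted p of 0.991). Without the filter on low counts, 5 of 83 nuclear genes were lower (3.21% of all genes were) and 4 were higher, as were 2 of 13 mitochondrial genes (3.96% of all genes were). In limma-voom 3 of 80 nuclear genes were lower (Ndufs3, Sdhd and Atp5g3) and 1 was higher (Cox4i2, with 4.07% of all genes higher). Of all 13768 genes, 1129 had an unadjusted p under 0.05 in limma-voom in either direction.

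Levels of mitochondrial messenger RNAs per length fell into separate ranges by how much of their sequence also occurs in another annotated gene. Copies outside annotated genes were not looked for, so a low share does not show that a sequence is unique. The genes mt-Nd3, mt-Nd4l, mt-Co2, mt-Co3 and mt-Atp6 share over 90% of their 50-base windows with annotated nuclear pseudogenes of chromosome 1. These 5 stood at 1.13 to 28.9 CPM per kb, averaged over all libraries. The other 8 mitochondrial genes share 0% to 62.2% of their windows with other annotated genes and stood at 287 to 982 CPM per kb. The lowest of these 8, mt-Atp8, shares 0% in this count. It lies between mt-Co2 and mt-Atp6 in mitochondrial DNA, and the stretch between their copies on chromosome 1 was not compared. The nuclear copies had reads of their own: Gm28437, a copy of mt-Co3 (chromosome 1, 24613189 to 24613971, minus strand), had 589, 456 and 568 reads in PTZ, against 121, 367 and 581 in PBS. Gm10925, a copy of mt-Atp6 in the same cluster, had 407, 136 and 322 reads in PTZ, against 86, 75 and 306 in PBS. In both copies the groups overlapped. Reads that align to more than 1 place made up 7.61% to 9.99% of the reads in the count matrix for PTZ libraries and 6.36% to 9.14% for PBS libraries. The levels of mt-Co2, mt-Co3 and mt-Atp6 are therefore uncertain. Those of mt-Nd4 and mt-Co1, which share 62.2% and 51.1% of their windows, are uncertain too. Gm28439, a copy of mt-Nd4, had 76, 17 and 206 reads in PTZ, against 21, 8 and 128 in PBS. Gm29216, a copy of part of mt-Co1, had 481, 237 and 352 reads in PTZ, against 100, 184 and 522 in PBS. mt-Co2 had 16.2, 13.9 and 25.5 CPM in PTZ, against 3.37, 12.5 and 28.4 CPM in PBS (0.33, SE 0.61), and mt-Co3 had 27.4, 24.2 and 20.3 CPM in PTZ, against 5.06, 22.3 and 36.7 CPM in PBS (0.17, SE 0.55). mt-Atp6, the proton channel subunit of complex V, had 12.7, 5.26 and 9.58 CPM in PTZ, against 2.25, 3.16 and 14.4 CPM in PBS (0.47, SE 0.71). The estimate of mt-Atp6 was 1.73 without PBS library 4 and 0.055 without PBS library 1. In all 3 PBS library 1 was lowest and PBS library 4 highest, and the groups overlapped. mt-Nd3 had 4 to 6 reads per library in PTZ and 3 to 8 in PBS, and mt-Nd4l had 6 to 25 in PTZ and 1 to 20 in PBS, too few to test.

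A copy with the same sequence and a copy that differs are shown, each as 60 bases of the transcript, 5′ to 3′ (GENCODE M21 transcripts of GRCm38, with positions chrM:8968-9027 for mt-Co3, chr1:24613551-24613610 for Gm28437, chrM:6143-6202 for mt-Co1 and chr2:22588773-22588832 for Gm13340, both copies on the minus strand). mt-Co3 and Gm28437 have 0 mismatches over 783 aligned bases, so a read inside them cannot be placed by its sequence. mt-Co1 and its copy Gm13340 on chromosome 2 have 37 mismatches over 1545 aligned bases (97.6% identity), and the bases that differ are in capitals.
mt-Co3: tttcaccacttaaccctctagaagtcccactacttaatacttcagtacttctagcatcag
Gm28437: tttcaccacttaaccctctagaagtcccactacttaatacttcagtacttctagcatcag
mt-Co1: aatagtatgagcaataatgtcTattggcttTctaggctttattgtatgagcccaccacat
Gm13340: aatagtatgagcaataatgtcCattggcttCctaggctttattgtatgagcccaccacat

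**Figure D5:**
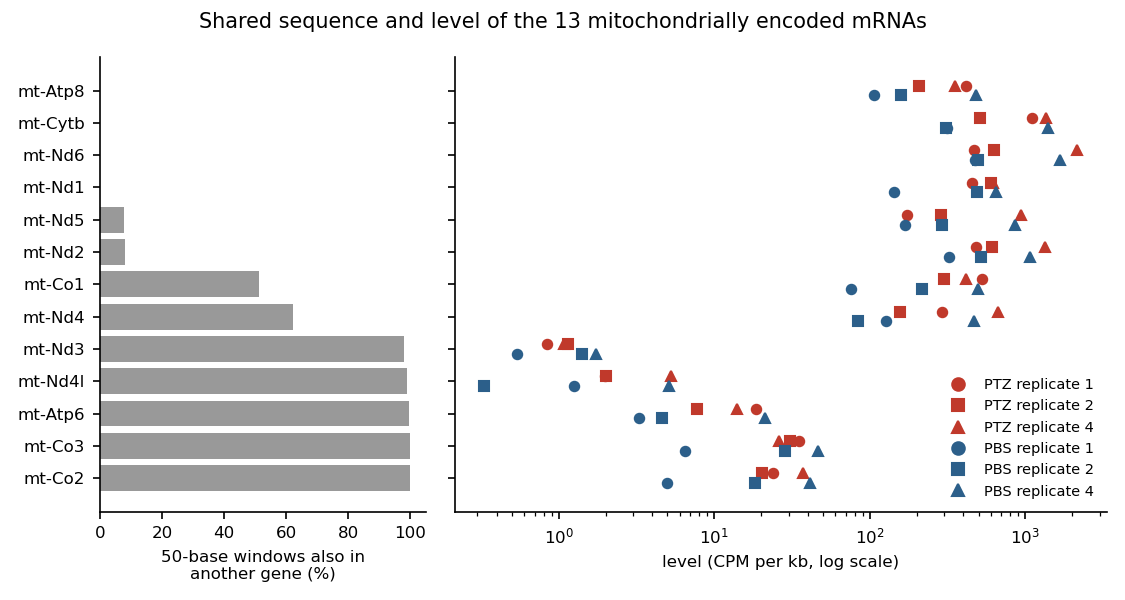
Share of the 50-base windows of each mitochondrial messenger RNA that also occur in another annotated gene (left, percent) and its level in each library (right, CPM per kb on a log scale). The 5 genes with over 90% shared lie at averages of 1.13 to 28.9 CPM per kb and the other 8 at 287 to 982.

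Other genes of oxidative metabolism were read from 6 lists, and 0 of their members passed the adjusted threshold in edgeR. The 43 tested assembly factors, which build the complexes, had a median log2 fold change of -0.26, and edgeR's p without adjustment was under 0.05 for 1 that was higher and 2 that were lower, close to the 3.83% higher and 3.38% lower among all genes. Ndufaf6, an assembly factor of complex I, had 3.73, 1.39 and 2.82 CPM in PTZ, against 0, 0 and 0.151 CPM in PBS, so that it was near 0 in PBS. Coa4, an assembly factor of complex IV, had 22.03, 13.3 and 10.5 CPM in PTZ, against 29.2, 27.4 and 34.1 CPM in PBS (-0.99, SE 0.33, adjusted p 0.648 in edgeR), and its groups did not overlap. The 16 electron carriers and complex III genes had a median of -0.090, with the lowest unadjusted p for Coq3, a methyltransferase of ubiquinone synthesis (-1.37, SE 0.62), and Etfdh, which passes electrons from fatty acid oxidation to ubiquinone (-0.46, SE 0.29).

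In the tricarboxylic acid cycle, which supplies NADH and succinate, the median of 18 genes was -0.057. Suclg1, a subunit of succinate-CoA ligase, had 85.1, 107 and 89.1 CPM in PTZ, against 146, 128 and 141 CPM in PBS (-0.56, SE 0.20, adjusted p 0.648 in edgeR). Dlat, of the pyruvate dehydrogenase complex, had 28.1, 22.2 and 31.8 CPM in PTZ, against 21.5, 16.2 and 18.5 CPM in PBS (0.55, SE 0.28). Neither gene overlapped between the groups. The 21 genes that copy, transcribe and process mitochondrial DNA and RNA had a median of -0.34, and 16 of them had negative estimates (47.3% of all genes had). At an unadjusted p under 0.05 in edgeR, 2 were lower (3.38% of all genes) and 0 higher (3.83%). In 5 of the 21 all PTZ libraries lay below all PBS libraries (7.04% of all genes), and in 0 above (7.3%). Any link of these genes to the mitochondrial messenger RNAs was not tested. Mterf4, which acts in assembly of the mitochondrial ribosome, had 5.64, 14.99 and 9.14 CPM in PTZ, against 29.6, 25.4 and 29.8 CPM in PBS (-1.51, SE 0.38, adjusted p 0.514 in edgeR). Tefm, an elongation factor of mitochondrial transcription, had 5.71, 10.03 and 3.94 CPM in PTZ, against 16.7, 10.3 and 18.9 CPM in PBS (-1.23, SE 0.47). Both had all PTZ libraries below all PBS libraries. Of 12 tested regulators of mitochondrial biogenesis, with a median of 0.23, Yy1 (0.59, SE 0.27) and Gabpb1, the partner of GABPA (0.49, SE 0.28), had the lowest unadjusted p. The 12 tested carriers and uncoupling genes had a median of -0.078, led in the same way by Slc25a11, the oxoglutarate carrier (-0.30, SE 0.21), and Slc25a3, the phosphate carrier (0.30, SE 0.27).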

How the data were processed

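Raw counts, in whole reads per Ensembl gene ID, came as 1 matrix from the authors, with 53465 gene rows and 5 summary rows per the file headers. The summary rows (16.1% to 22.9% of the reads in the matrix) stayed out of totals and tests. Their row for unaligned reads was 0 in every library, so such reads are in none of the shares given. A deposited signal file for each library holds the same counts over 1 factor (whole within 0.01 reads for 100% of values), and served as an alternative scaling. Tools listed in the submitters' processing notes are TopHat2 2.1.1, CASAVA, edgeR and HTSeq, with the build GRCm38 and no roles. Annotation release and strand setting are not given, so overlapping genes cannot be told apart with certainty.

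Low genes were removed with filterByExpr (count minimum 10, total minimum 15). After TMM scaling (0.864 to 1.14), tests were run with edgeR 4.0.16 in R 4.3.3 (quasi-likelihood, group as the factor, 2-sided, Benjamini-Hochberg over 13768 genes, threshold 0.05). The SE is the fold change over the square root of its test statistic. Depth limits low genes. The biological coefficient of variation common to all genes tested was 0.470. The error of single genes differed from this common value, with an SE of 0.19 for Uqcrc2 and 0.67 for mt-Nd5. Replicates of a group differed beyond sampling noise (chi-square per degree of freedom 43.8 to 99.1). The test was also run on simulated counts, drawn independently per gene with the dispersions of the fit. These held no shift shared by the genes of a library, so that run does not bear on such shifts. Coordinates, types and exon lengths (all annotated exons of a gene, merged) are from GENCODE M21 (GRCm38), and promoters from RefSeq.

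Replicate numbers come from the sample titles. Deviations from group means correlated at 0.167, 0.197 and 0.217 between libraries of the same number, over 0.1 in each pair. Between libraries of different numbers they correlated at -0.127 to -0.062. These correlations are not independent, because they share the same 3 libraries per group. The labels do not say that the numbers pair the libraries, so a pairing is possible but not established. Values are from the fit without the block unless named otherwise. The fit with the block was an alternative, as were DESeq2 1.42.0, limma-voom 3.58.1, other scalings, no filter and leaving out each library. Members, gene lists and tests were chosen with earlier results of these data known. Named were the members with the smallest p per complex, all mitochondrial genes, tissue isoforms, subunit c genes and the highest per length. Ndufs1, Ndufv1, Ndufab1, Ndufb2, Cox4i1, Atp5a1, Atp5e, Uqcrh and the sequences shown were picked after values were seen.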

Additional observations from a re-analysis of the deposited data

How the results depend on the processing

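In none of the 14 alternatives did a respiratory chain gene pass the adjusted threshold, while DESeq2 called 76 of all genes, the fit without the low-count filter 121, limma-voom 1 and the fit that left out PBS library 2 called 8. Of 49 named members, 30 kept their sign in every alternative. Nuclear genes lower at an unadjusted p under 0.05 (2 in the main test) were 5 without the filter (3.21% of all genes) and 5 with the replicate block (5.31%). With limma-voom 3 were lower, where 1129 of all 13768 genes had such a p in either direction. Higher ones (0) were 4 without the filter (3.96% of all genes) and 1 with limma-voom (4.07%), and mitochondrial ones higher (0) were 2 without the filter and 2 with the replicate block (5.59%), which changed no adjusted call. Without the filter the median over all genes was 0.10. Signs turned for Sdha, at 0.00068 with plain totals, 0.0038 with the block and 0.0077 with limma-voom. Cox6a1 was -0.0098 with the block. Cox6b2 was 0.029 with plain totals, 0.12 with the block and 0.25 with limma-voom. Ndufs1 was 0.011 with plain totals, and Atp5a1 was -0.024 with the authors' scaling and -0.00025 without the filter. The causes were not tested.

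Leaving out each library in turn gave medians of -0.61 to -0.065 for the nuclear genes, -0.59 to -0.073 for complex I, -0.66 to 0.060 for complex III, -0.35 to 0.040 for complex IV, and -0.71 to -0.15 for complex V, with PTZ library 2 left out at the low end and PTZ library 1 at the high end. The mitochondrial median ranged from 0.021 without PBS library 1 to 1.21 without PBS library 4. Counts at an unadjusted p under 0.05 ranged from 1 to 44 for nuclear genes lower (44 without PTZ library 2, with 6.48% of all genes), 0 to 1 for nuclear genes higher and 0 to 5 for mitochondrial genes higher (5 without PBS library 4, with 2.54% of all genes). The estimates of 45 of 49 named members moved by over 1.5 times or changed sign when 1 library was left out. Leaving out PTZ library 2 moved the most of them in this way (27 with their sign kept and 1 with it turned). Log2 fold changes that changed sign ranged from -0.23 to 0.11 for Sdha, -0.024 to 1.11 for Cox5b, -0.55 to 1.37 for Cox8a, -0.80 to 0.94 for Cox6a1, -0.75 to 0.060 for Ndufa2, -0.64 to 0.083 for Uqcr11, -0.65 to 0.19 for Cox4i1, -0.43 to 0.36 for Cox6b2, -0.32 to 0.18 for Cox7a1, -0.11 to 0.023 for Ndufs1 and -0.052 to 0.19 for Ndufv1. Among mitochondrial genes they ranged from -0.026 to 0.79 for mt-Nd1, -0.23 to 0.91 for mt-Nd2, -0.021 to 1.79 for mt-Nd4, -0.94 to 0.99 for mt-Nd5, -0.69 to 1.13 for mt-Nd6, -0.14 to 1.21 for mt-Co2 and -0.30 to 0.79 for mt-Co3.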
